A study of Mus musculus with 4 samples.

Results

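The clustered protocadherins are cell-surface adhesion proteins encoded by 3 neighbouring gene arrays, called alpha, beta and gamma, on mouse chromosome 18. They were taken from the gene annotation deposited with the series as the protein-coding genes of that chromosome whose names begin with Pcdha, Pcdhb or Pcdhg. This gave 58 of the 46078 annotated genes and of the 22159 protein-coding ones, of which 15 were named as alpha, 22 as beta and 21 as gamma genes. Every member lay on the plus strand of GRCm38, between positions 36930184 and 37841873.

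The libraries of the series came from bone marrow-derived macrophages of C57/BL6 mice that all carried floxed Piezo1 alleles (Piezo1 fl/fl), grown with M-CSF at 50 ng/mL. The genotype without Cre is called WT in the labels, and the genotype with LysM Cre+, which drives deletion in myeloid cells, is called KO. Cells of each genotype were held for 6 h under static pressure or under cyclic hydrostatic pressure of about 15 mmHg, which gave the groups WT_Static, WT_Cyclic, KO_Static and KO_Cyclic with 1 library each. No value of a library was analysed here, so depth is unknown, the labelled cell type was not checked against markers, and the values below describe the annotation and the reference transcript sequences that match it, with no sampling error.

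Each alpha or gamma protein is assembled from a large variable first exon, which encodes the extracellular cadherin repeats, the membrane-spanning segment and a short intracellular stretch, and from small constant exons, which encode the rest of the intracellular tail. In neurons, the tissue in which these genes are best known, each cell uses a few first-exon promoters, and the resulting mixture of proteins gives the cell a surface identity that is recognised by like-with-like adhesion. CTCF and cohesin, which fold the chromosome into loops, take part in that promoter choice. Because the constant exons belong to many genes at once, the way an annotation divides the locus sets which sequenced fragments can be assigned to a single gene.

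The arrays followed each other without mixing, apart from ENSMUSG00000103458, a gene named as alpha that ends in gamma and is described further on. It was left out of the spans and distances given here. The other alpha genes spanned 257478 bases, the beta genes 259542 and the gamma genes 180081. Between alpha and beta lay 77276 bases, and between beta and gamma 137313. The median distance from one first exon to the next was 4845 bases in alpha, 4027 in beta and 2784.5 in gamma. The C-type genes, Pcdhac1, Pcdhac2, Pcdhgc3 and Pcdhgc5, whose use is less random from cell to cell, stood apart from the rest at the downstream ends of their arrays. A gap of 67389 bases lay between the first exons of Pcdha12 and Pcdhac1, and one of 50931 bases between those of Pcdhac1 and Pcdhac2. In the gamma array, 37869 bases separated Pcdhga12 from Pcdhgc3. Among the beta genes the largest gap, 42250 bases, lay between Pcdhb8 and Pcdhb9, while Pcdhb17 and Pcdhb18 were only 10 bases apart.

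**Figure D1:**
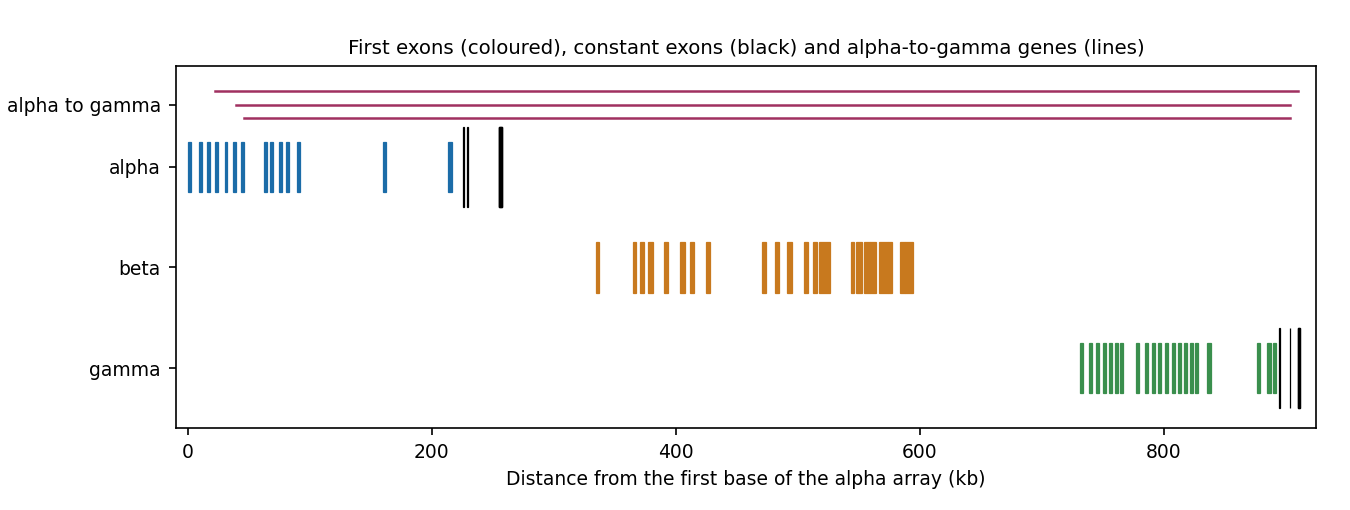
First exons of alpha, beta and gamma genes (coloured boxes) and constant exons (black boxes) along the locus, with distance in kb from the first base of the alpha array on the horizontal axis; the lines at the top are the spans of ENSMUSG00000103458, Gm37013 and Gm37388, which begin in the alpha array and end in the gamma constant exons. The constant exons lie downstream of all first exons of their array in alpha and gamma, and the beta array has none.

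The variable first exon was nearly the same size in coding sequence in all 3 arrays. In the longest coding transcript of each gene, the first exon held a median of 2385 coding bases in alpha, 2388 in beta and 2421 in gamma. All 58 members had over 2000 coding bases there, against 0.695% of all protein-coding genes, whose median was 67 coding bases. In all 58 the coding part was a multiple of 3 bases, so the first exons of the 36 alpha and gamma members ended between codons, whereas those of the beta genes ran on into 3' untranslated sequence. This part made up a median of 84.0% of the coding sequence in alpha and 86.7% in gamma. It made up 100% in each of the 22 beta genes, whose longest coding transcript had 1 exon. The longest coding transcript had 1 exon in 11.9% of all protein-coding genes. Every alpha and gamma member had 4 exons in its longest coding transcript.

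Whole first exons differed more than their coding parts, because of untranslated sequence. The median first exon was 2481 bases in alpha, from 2346 in Pcdha5 to 3028 in Pcdhac2. In gamma it was 2607 bases, from 2542 in Pcdhgb2 to 2961 in Pcdhga12. The beta exons were the longest and the most variable, running from 2588 bases in Pcdhb1 to 8695 in Pcdhb14 around a median of 3714. The 3' untranslated part of the beta genes ran from 71 bases in Pcdhb1 to 6117 in Pcdhb14, whereas 14 alpha genes all had 2401 bases and the gamma genes had 1741 or 1744, the part that the shared last exon supplies. Pcdha1, Pcdha5, Pcdha9 and Pcdhb8 were annotated as coding from the first base of that exon, so no 5' untranslated sequence is recorded for that transcript.

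The first intron of an alpha or gamma gene reaches from its own first exon to the first constant exon. It therefore shortened along each array, apart from 1 gene that crosses from alpha to gamma and is described further on. In alpha it fell from 223482 bases in Pcdha1, the most upstream gene, to 63583 in Pcdhac1 and 9624 in Pcdhac2, the most downstream one. In gamma it fell from 160655 bases in Pcdhga1 to 16043 in Pcdhgc3 and 2886 in Pcdhgc5. First introns of over 100000 bases occurred in 23 of the 36 multi-exon members (63.9%) and in 377 of 19532 protein-coding genes with at least 2 exons (1.93%). The median first intron of those genes was 2781 bases.

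The alpha constant exons were 3 intervals of 59, 89 and 2712 bases, at positions 37156155 to 37156213, 37159265 to 37159353 and 37184946 to 37187657. Each was present in 14 alpha genes, and together they supplied 456 coding bases, of which the last exon held 308. In 5 of these genes (Pcdha1, Pcdha2, Pcdha6, Pcdha4 with the identifier ENSMUSG00000104252 and Pcdha11 with the identifier ENSMUSG00000102206) a further transcript ended the first piece of the last exon at 37185047 and resumed at 37185476. This split form, found in 6 transcripts, left 318 coding bases after the first exon in the 5 transcripts classed as protein-coding.

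The gamma constant exons had the same first lengths, 59 and 89 bases, at positions 37825021 to 37825079 and 37833265 to 37833353. They occurred in 22 members, the 21 gamma genes and 1 gene named as alpha. The gamma last exon began at 37839903, held 224 coding bases and ended at 37841873 in 17 members, at 37841870 in 4 and at 37840200 in 2, with 1 member using more than 1 of these ends. A further end, at 37840051, occurred in 1 coding transcript. Together the gamma constant exons supplied 372 coding bases. No beta gene shared an exon. In all, 36 of 58 members held an exon with the same start and end as an exon of another member, against 2.73% of protein-coding genes that share such an exon with any gene.

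A shared interval did not carry a shared identifier. The first alpha constant exon was written in 22 transcripts under 16 different exon identifiers, and the first gamma constant exon in 26 transcripts under 24. A count by exon identifier would thus treat the same bases as many exons.

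Same-strand exon overlap separated alpha and gamma from beta. At least 1 exon base was also covered by an exon of another gene on the same strand in 38 of 58 members, made up of 15 of 15 alpha, 2 of 22 beta and 21 of 21 gamma genes. The same held for 6.25% of all protein-coding genes. The median overlapped share of the union exon length, which is the number of bases covered by any transcript of the gene, was 53.6% in alpha, 0 in beta and 44.6% in gamma. More than 50% of the union was overlapped in 15 of 58 members, 13 alpha and 2 gamma, against 1.51% of protein-coding genes. Counted over coding bases alone, the medians were 16.3% in alpha and 13.3% in gamma, since most of each shared last exon is 3' untranslated sequence.

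**Figure D2:**
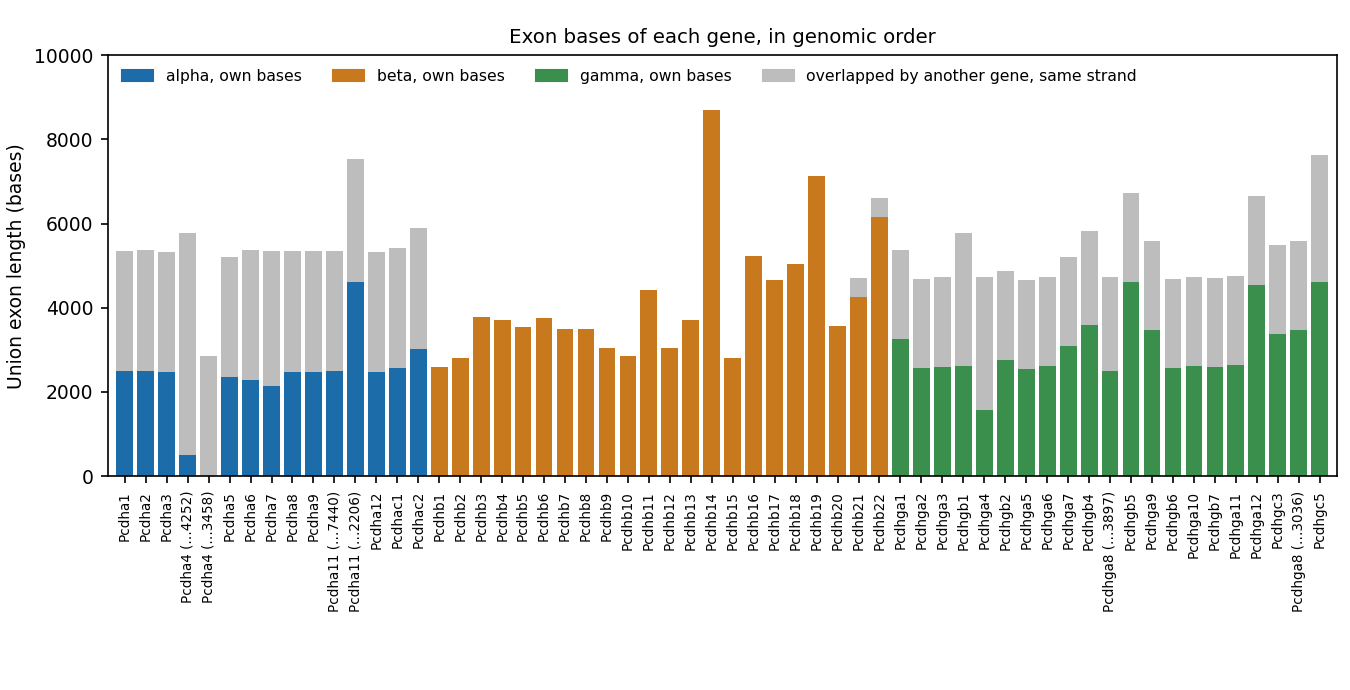
Union exon length in bases for each of the 58 genes in genomic order, divided into bases that no other gene covers on the same strand (coloured by array) and bases that another gene covers (grey). Digits in brackets are the last 4 of the gene identifier where 2 genes have 1 name. Alpha and gamma genes carry a grey block of similar height, and among beta genes only Pcdhb21 and Pcdhb22 have one.

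Individual genes departed from these medians where first exons or extra transcripts also overlapped, or where extra transcripts added bases of their own. The alpha gene with the smallest share was Pcdha11 (ENSMUSG00000102206), at 38.9%, with 4606 bases of its own and 5 transcripts, the most of any member. In gamma the share ran from 31.5% in Pcdhgb5 to 66.8% in Pcdhga4. The first exon of Pcdhga4 shared 1038 bases with a noncoding transcript of its upstream neighbour Pcdhgb1, which left Pcdhga4 with 1570 bases of its own and with 43.7% of its coding bases overlapped. A stretch of 108 bases was shared in the same way between Pcdhgb4 and the Pcdhga8 gene ENSMUSG00000103897. The only beta overlap joined Pcdhb21 and Pcdhb22 over 455 bases, which was 9.67% of the first and 6.88% of the second and touched no coding base of either.

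Among the C-type genes the overlapped share was 52.8% in Pcdhac1, 48.6% in Pcdhac2, 38.5% in Pcdhgc3 and 39.6% in Pcdhgc5. Pcdhgc5 had 4 transcripts, the most in gamma, and shared 902 further bases with the noncoding gene Gm38182.

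One member crossed the arrays. ENSMUSG00000103458, named Pcdha4 in the deposited file, joined an alpha first exon of 2410 bases to the gamma constant exons through a first intron of 869870 bases. All of its 2856 exon bases were covered by other genes on the same strand, so it had 0 bases of its own. Its first exon lay inside that of ENSMUSG00000104252, the other gene named Pcdha4, which was itself overlapped over 91.4% and kept 494 bases. GENCODE M21, another annotation of the same build, gives the crossing gene the name Gm42416, and the RefSeq symbol at that place is Gm37013. The genes named Gm37013 and Gm37388 in the deposited file, which are not members, also run from alpha to gamma, but as shorter models of 313 and 429 exon bases. They begin within the first exons of Pcdha6 and Pcdha7, which they overlap by 222 and 338 bases, and end at 37833296, inside the second gamma constant exon.

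Linked through shared exon bases on the same strand, 36 members and 5 further genes formed a single group of 41 genes. It was the largest of 1108 such groups in the annotation, whose median was 2 genes. When the 3 genes that run from alpha to gamma were left out, it separated into a group of 23 genes with the 21 gamma members and a group of 15 with the other 14 alpha members. A single base of the gamma constant exons lay in exons of up to 26 genes, and one of the alpha constant exons in 14. Besides the members, the gamma constant exons belonged to Gm37013, Gm37388, Gm38182 and the polymorphic pseudogene Pcdhgb8.

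The next deepest group was the Ugt1a locus on chromosome 1, where tandem first exons of UDP-glucuronosyltransferases, enzymes that conjugate bilirubin and drugs, are joined to common downstream exons. Its 9 genes all met on 1 base, and their median overlapped share was 59.2%, from 50.3% to 60.6%. No other group had more than 3 genes on 1 base. The non-clustered protocadherins, single genes of the same superfamily that are scattered over the genome, also had a large coding exon, though not always the first. Their longest coding exon had a median of 2592 coding bases, with 11 of 12 over 2000. Their first exon held a median of 67.8% of the coding sequence. They did not share the overlap, which 1 of 12 showed at 1.97% of its union, and 0 of 12 had an exon identical to one of another gene. Their median of 5 transcripts per gene compared with 1 over the clustered members, of which 37 of 58 had a single transcript against 39.0% of all protein-coding genes.

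Genes that act on or with the clusters were looked up in the same way. Of 12 symbols for regulators of the locus, among them the loop factors Ctcf and Rad21 and the repressor Smchd1, 11 were found and 0 had same-strand overlap. The 12 partners of the intracellular part, such as the tyrosine kinases Ptk2 and Ptk2b and the actin regulators Wasf1 and Cyfip2, were all found, and 0 had it. With 6.25% of all protein-coding genes overlapped, lists of this size would hold few such genes in any case.

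Opposite-strand overlap was less uneven. Exons of a gene on the minus strand overlapped 14 of 58 members (5 alpha, 1 beta and 8 gamma), a share of 24.1% beside 19.7% for all protein-coding genes. The largest cases were Pcdhb12, overlapped over 63.5% by Gm37446, Pcdhga10, over 55.2% by Gm26672, and Pcdha11 (ENSMUSG00000102206), over 44.3% by Gm10544 and Gm10545. Gm26672 also covered part of Pcdhgb7, Pcdhga11 and Pcdhga12. BC037039 covered 28.4% of Pcdhgc3. Within the locus lay 27 genes that are not members, 12 on the plus and 15 on the minus strand. Slc25a2, a mitochondrial carrier, and Taf7, a subunit of the general transcription factor TFIID, were the protein-coding genes on the minus strand, both between beta and gamma. The sources used here do not say whether the libraries kept strand, and without it, reads of a gene and its antisense partner cannot be told apart.

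The 88 transcripts of the members were 25 of alpha, 26 of beta and 37 of gamma genes. Of these, 74 were protein-coding, 10 had a retained intron, 2 were marked for nonsense-mediated decay and 2 were processed transcripts without a coding sequence. The deposited file assigns each transcript to a start-site group (tss_id) and each coding one to a protein group (p_id), the units in which Cufflinks sums transcripts. The members held 87 start-site groups, 25 in alpha, 26 in beta and 36 in gamma. Only 1 of them, in Pcdhga1, held more than 1 transcript. The members held 76 protein groups, 22 in alpha, 26 in beta and 28 in gamma, each with 1 transcript. None of these groups was shared between genes. Sharing was also rare in the whole annotation, at 65 of 103428 start-site groups and 37 of 49845 protein groups. Sets as small as those of the members would hold few or none in any case. With 87 start-site groups for 88 transcripts, the groups followed single transcripts. Pcdha11 (ENSMUSG00000102206) had 5. Pcdhb2, Pcdhb6, Pcdhb8 and Pcdhb22, which each had a further transcript beside the longest coding one, had 2 each. They did not pool the shared constant exons.

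Names were less distinct than identifiers. The 58 members carried 55 names, and Pcdha4, Pcdha11 and Pcdhga8 were each used for 2 genes. These 6 members were 10.3% of the set, beside 0.375% of protein-coding genes that share name and chromosome with another. The Pcdha11 gene ENSMUSG00000007440 lies where RefSeq places Pcdha10. The Pcdhga8 gene ENSMUSG00000023036, between Pcdhgc3 and Pcdhgc5, is Pcdhgc4 in both GENCODE M21 and RefSeq. It had the layout of its neighbours, with a first intron of 7037 bases and an overlapped share of 37.9%. The union exons of all 58 members were identical in GENCODE M21, which gave 56 of them the same name. At 54 of 58 places the deposited name was also the RefSeq symbol. A table of values keyed by gene name would merge or overwrite the members of each pair.

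Sharing was also measured in read-length sequence, for first and later exons. The libraries were sequenced as paired reads of 75 bases. Every window of that length in the members' transcripts was therefore looked up in the GENCODE M21 transcripts of all other genes, genome-wide. Matches in the direction of transcription were counted, and matches to the reverse complement were left out. In all 36 alpha and gamma members, 100% of the windows inside the exons after the first occurred in another gene. This follows from the shared coordinates of those exons and is not separate evidence. Inside the first exon the median share was 10.5% in alpha, 1.23% in beta and 0 in gamma. Over whole genes it was 57.7% in alpha, 1.23% in beta and 43.9% in gamma.

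**Figure D3:**
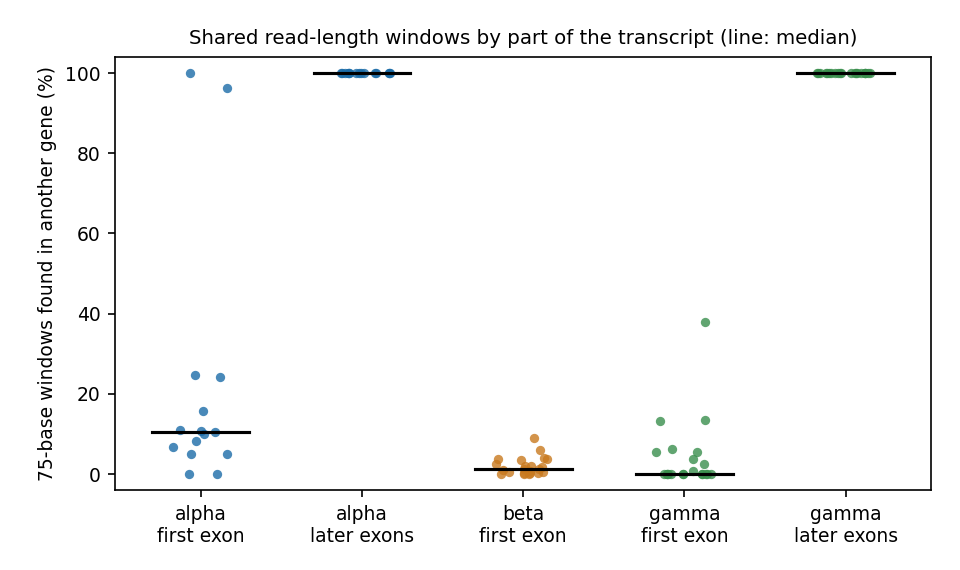
Share of 75-base windows, in percent, that also occur in the same direction in a transcript of another gene, for windows inside the first exon and inside the later exons. Matches to the reverse complement are left out. Each point is a gene and each line the median of its array. Points for later exons all sit at 100%, while first exons lie at 24.6% or below except for the 2 genes named Pcdha4 (96.2% and 100%) and Pcdhga4 (38.0%).

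First exons with no shared window in the same direction numbered 16. They belonged to 2 alpha genes (Pcdhac1 and Pcdhac2), 2 beta genes (Pcdhb1 and Pcdhb13) and 12 gamma genes. Among the 12 were Pcdhgc3, Pcdhgc5 and ENSMUSG00000023036, which lies between them. Over whole genes, the highest numbers of reverse-complement matches among the 12 were 2539 windows in Pcdhga10 and 1485 in Pcdhgc3. Pcdhac1, Pcdhac2, Pcdhb1, Pcdhb13, Pcdhgc5 and ENSMUSG00000023036 had 0. Pcdha6 and Pcdha7 were next after the Pcdha4 pair in alpha, at 24.3% and 24.6%. Some sharing was between separate exons of similar sequence: Pcdhgb1 and Pcdhgb2 had 318 first-exon windows in common and Pcdha7 and Pcdha8 had 202, although the exons of each pair do not overlap. Of the 74 windows that cross from a first exon into the first constant exon, between 1 and 11 in each of the 36 genes occurred in another gene. Single reads of this length that lie wholly in constant exons thus fit several gene models, whereas most of those that cross the first junction fit only 1. A read pair can also be placed by its mate, which was not modelled.

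The translated proteins showed what the shared exons encode. Among the 14 alpha genes with alpha constant exons, all 91 pairs had the same 152 to 154 residues at the C-terminal end, and all 210 gamma pairs had the same 124 to 128. The median over beta pairs was 0 and the largest 11. ENSMUSG00000103458 shared at least 124 residues with each gamma protein and 0 with each alpha protein at this end, while the part encoded by its first exon was 100% identical to that of the other Pcdha4 gene. Members were 772 to 1006 residues long, with medians of 947 in alpha, 796 in beta and 931 in gamma.

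In the part encoded by the first exon, similarity followed the arrays and their subfamilies. Median amino acid identity was 76.3% among the 12 regular alpha genes, 67.8% among the 12 gamma A genes, 67.0% among the 6 gamma B genes and 69.5% among the beta genes. Gamma A and gamma B genes, which are interspersed along 1 array and share the same constant exons, were 46.1% identical to each other, beside 43.5% between gamma A and beta. The most similar pair of different first exons was Pcdhb6 and Pcdhb8 at 88.9%, followed by Pcdhb11 and Pcdhb12 at 86.3%, Pcdhb7 and Pcdhb9 at 86.0% and Pcdha7 and Pcdha8 at 85.7%.

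**Figure D4:**
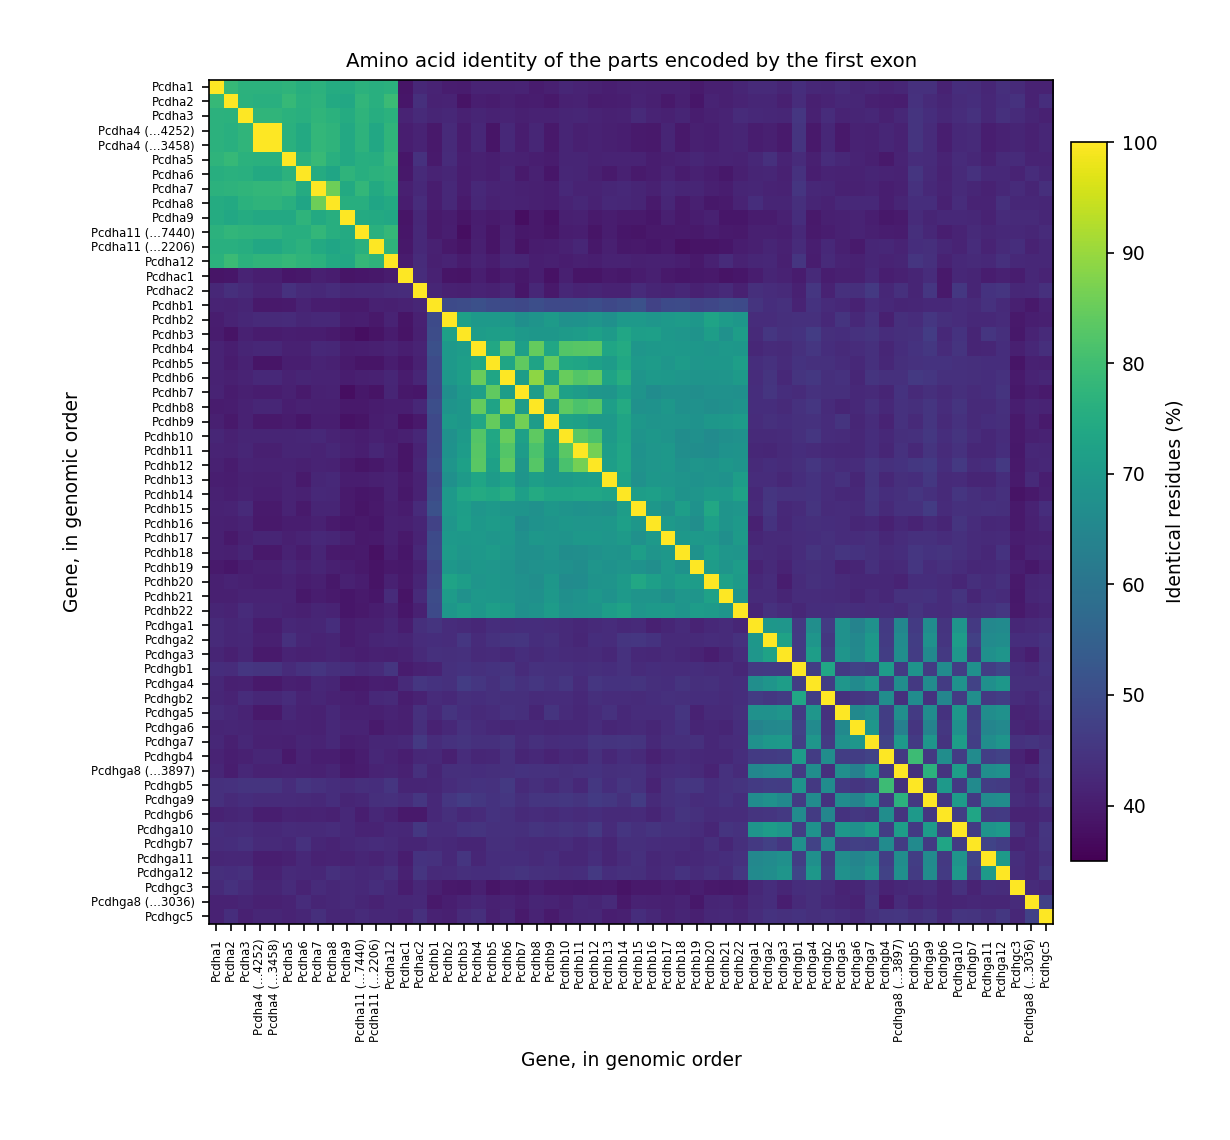
Amino acid identity, in percent (colour), of the first-exon parts of all pairs of genes in genomic order on both axes. The alpha block is nearly uniform, the beta block is brighter for some pairs between Pcdhb4 and Pcdhb12, the gamma block alternates between A and B genes, and the C-type genes and Pcdhb1 show as dark bands.

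The C-type genes were about as far from their own array as from the other array with constant exons. Pcdhac1 had a median identity of 39.1% to the regular alpha genes and 41.1% to gamma A, and Pcdhac2 had 42.6% and 44.3%. The closest relative of Pcdhac2 was a gamma gene, Pcdhga7, at 45.8%. Pcdhgc3 had 43.3% to gamma A and 42.7% to alpha, and Pcdhgc5 had 44.0% and 42.0%. To beta, the medians were 39.3% for Pcdhac1, 41.5% for Pcdhac2, 39.5% for Pcdhgc3 and 41.5% for Pcdhgc5. Pcdhgc5 was closest to ENSMUSG00000023036, the gene at the place of Pcdhgc4, at 47.5%. That gene had a median of 42.3% to the gamma A genes, whose name it carries in the deposited file. Pcdhb1 was the outlying beta gene, with its closest relative, Pcdhb15, at 51.1%.

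Identity was uneven along the protein. When the first-exon part was divided into 10 equal pieces from the N-terminal end, mean pairwise identity in the fourth piece was 53.4% in alpha, 52.0% in gamma A, 55.0% in gamma B and 53.5% in beta. It was highest in the seventh piece in alpha, at 98.0%, and in the eighth in gamma A (91.4%), gamma B (96.3%) and beta (92.4%). Beta genes had their lowest value, 48.3%, in the first piece, and gamma B genes theirs, 46.9%, in the last. The pieces were not mapped to single cadherin repeats or to other parts of the protein. Whether low identity in a piece bears on recognition was not tested.

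**Figure D5:**
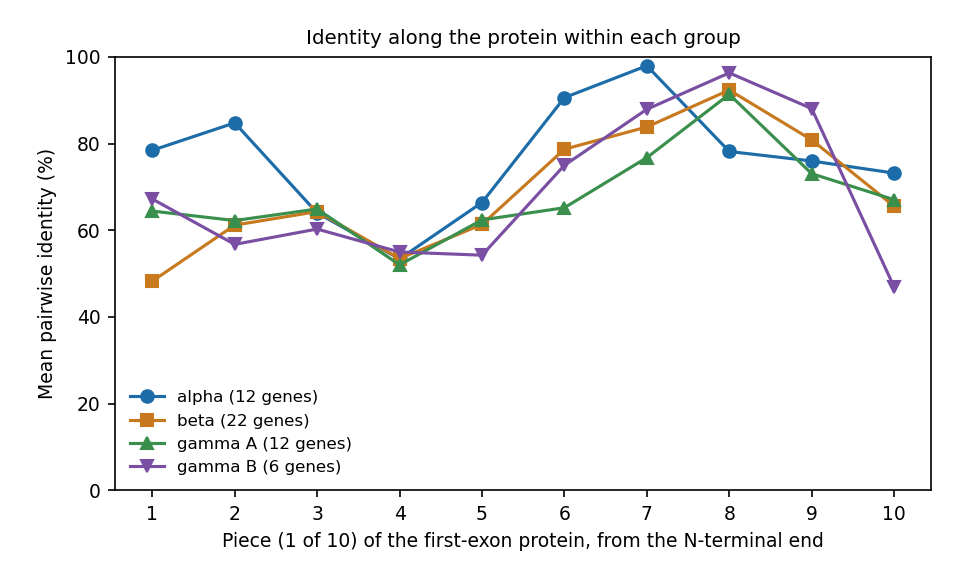
Mean pairwise amino acid identity, in percent, in each of 10 equal pieces of the first-exon protein from the N-terminal end, for regular alpha, beta, gamma A and gamma B genes. All 4 lines are low in the fourth piece (52.0% to 55.0%) and rise to 91.4% or more in the seventh or eighth.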

How the data were processed

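Polyadenylated RNA of 4 libraries was read from both ends over 75 bases, per the labels' protocols. Cufflinks, TopHat2, Bowtie2, FastQC and CASAVA 1.8 are named, without roles, per the submitters' processing notes. The file analysed here is the gene annotation the authors deposited, whose values are other than measurements: starts and ends in bases of GRCm38, counted from 1. The sources used here give no release for it, and 0 of its columns hold library values.

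Exon and coding lines were read with Python 3.11.15 and numpy 2.4.6. An overlap of at least 1 base counted. The first exon is that of the longest coding transcript. All 88 member transcripts matched GENCODE M21 transcripts with the same exons, whose sequences were used for windows and translated proteins. Identity is from global alignments with the BLOSUM62 matrix (Biopython 1.88). The functions for exon overlap, shared windows and shared protein ends were tested on simulated data. They were right for 800 of 800 genes and 50 of 50 pairs of each kind. Translation, identity and base composition were not tested in this way.

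Genes of 1 array share exons and are not replicates, so no test was made. Named genes are the C-type members and, in each array, the first and last gene, the extremes of first-exon length and overlapped share, the gene with most transcripts and departures from the pattern. Other genes named were chosen after their values were seen. Members and lists were chosen with earlier results of these data known. Alternatives covered transcripts, annotation, overlap minimum, biotype and coding bases. Sequences are not printed.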

Additional observations from a re-analysis of the deposited data

How the results depend on the processing

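Of 38 alternatives computed, 33 stayed within 1.5 times the reported value. Counting coding bases alone lowered the median overlapped share from 39.2% to 13.3% over all members, from 53.6% to 16.3% in alpha and from 44.6% to 13.3% in gamma, and the median beta first exon from 3714 to 2388 bases, since untranslated sequence is left out. The largest linked group fell from 41 to 23 genes without the 3 genes that join alpha to gamma, an alternative chosen after seeing the data, as were counting protein-coding genes only on the gamma constant exons (24 in place of 26 genes) and measuring shared protein ends from coordinates (152 and 124 residues, as reported). GENCODE M21 gave 57 members by the same rule, and every biotype gave 59. RefSeq proteins were not used here, so translated transcripts replaced them and that planned comparison was not run. With no library value, no depth limits these counts. No paired analysis was possible because the groups have 1 library each and no result comes from a test.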

Other observations

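Base composition of the first exons differed between arrays. The ratio of observed to expected CpG in their coding part had a median of 0.670 in alpha, 0.437 in beta and 0.505 in gamma, beside 0.408 for the coding sequence of 21948 protein-coding genes of GENCODE M21. The GC content differed less, with medians of 53.6%, 51.4% and 52.5%, beside 51.9% for all those genes. Within alpha the CpG ratio ran from 0.414 in Pcdhac1 to 0.773 in Pcdha5, and within gamma from 0.364 in Pcdhgc5 to 0.772 in Pcdhga12. Pcdhac2 was at 0.489, so both alpha C-type genes lay below every regular alpha gene, the lowest being ENSMUSG00000007440 at 0.604. Among the gamma C-type genes, Pcdhgc3 was high at 0.710. ENSMUSG00000023036, at the place of Pcdhgc4, was at 0.452. In beta it ran from 0.319 in Pcdhb9 to 0.500 in Pcdhb15. CpG sites in and around these first exons are known to be methylated at silent members. Methylation was not analysed here.

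Neighbouring beta genes were not always the most alike. Pcdhb4 was closest to Pcdhb6 (85.1% identity of the encoded protein) and Pcdhb6 to Pcdhb8 (88.9%), while Pcdhb5 was closest to Pcdhb9 (84.6%) and Pcdhb7 to Pcdhb9 (86.0%), so the genes of these sets alternate along the chromosome. In gamma, the closest relative of Pcdhgb4 was Pcdhgb5 (79.5%), with a gamma A gene between them, and that of the Pcdhga8 gene ENSMUSG00000103897 was Pcdhga9 (76.8%), with Pcdhgb5 between them.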
